A study of Mus musculus with 8 samples.

Results

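The genes described here make cholesterol, regulate that synthesis or move sterols across membranes. They were 26 mouse genes chosen by name, and each was read from its brightest probe, that is the probe with the highest mean level over all 8 arrays, which ignores the difference between conditions. All 26 were on the array, which named 36406 genes or transcripts with 55681 probes, and all 26 were well above background on all 8 arrays. A total of 17 genes had 1 probe and 9 had 2. E14Tg2A.4 cells, a line of mouse embryonic stem (ES) cells, were profiled as 4 untreated cultures and 4 cultures kept with 1 µM all-trans retinoic acid (RA) for 72 h. RA was given in medium without leukemia inhibitory factor, so the effects of RA and of the missing factor cannot be told apart, and no genotype differed between the conditions. Total RNA was labelled with Cy3 and hybridised to 1-colour Agilent SurePrint G3 arrays. The series text calls the 4 samples of a condition biological replicates.

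Cholesterol is built from acetyl-CoA. The mevalonate arm makes isoprenoid units, squalene is then assembled and closed into lanosterol, and a last set of enzymes trims lanosterol to cholesterol. The transcription factors SREBP-1 and SREBP-2, encoded by Srebf1 and Srebf2, sit in the endoplasmic reticulum bound to Scap, and the Insig proteins hold this complex there while sterols are plentiful. When sterols fall, Scap carries the SREBPs to the Golgi apparatus, where they are cut and freed to switch on the genes of the synthetic enzymes. The liver X receptors (LXR), which work with RXR and are activated by oxysterols, act in the other direction and drive the exporters Abca1 and Abcg1. Embryonic cells need cholesterol for growing membranes and for the maturation of Hedgehog proteins.

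After 3 days of RA, 21 of the 26 genes were higher, 2 were lower and 3 did not pass the test. A gene was called when its adjusted p in limma's test over all probes was under 0.05 and its change over 1.5-fold. By the same rule 12.9% of all probes were called higher and 21.6% lower, and among the 27530 probes detected (well above background) on every array these shares were 17.8% and 27.7%. The genes called higher were thus 80.8% of the 26. All 4 RA arrays lay above all 4 untreated arrays for 20 of the 26 genes, against 13.9% of all probes, and below them for 2, against 23.8%. The median log2 change of the 26 genes was 0.96, while the median of all probes was -0.28. Relative to that median, the shift of the 26 genes was 1.23. The balance of all calls depended on the scaling, since 37.4% of all called probes were higher here and 48.4% after quantile normalization, but 22 of the 26 genes were called higher and 2 lower after the latter.

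**Figure D1:**
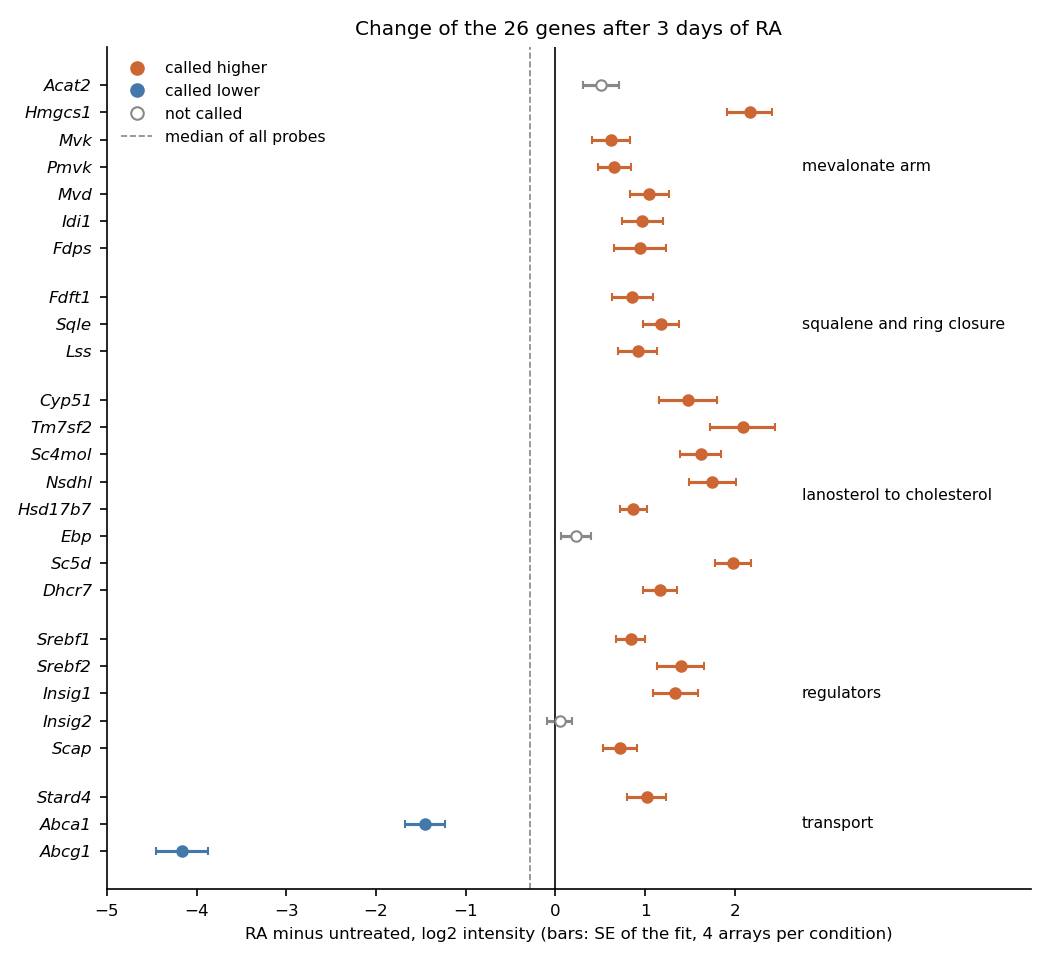
Change of each of the 26 genes (RA minus untreated, log2 intensity on the horizontal axis, SE of the fit as bars, 4 arrays per condition), in the order of the pathway. Filled points passed the test, open points did not, and the dashed line is the median of all probes at -0.28. The synthetic enzymes lie to the right of 0 from 0.23 to 2.17, whereas Abca1 and Abcg1 lie to the left.

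Of the 18 synthetic enzymes, 16 were called higher and none lower, and Acat2 and Ebp were not called. The median log2 change of the 18 was 1.01. All 18 changes were above 0, and they stayed above 0 under each of 17 settings that changed the scaling, background correction, filter, block, probe choice or the arrays included. The filter on dim probes and the slide and replicate blocks do not alter a log2 change, so the sign could not differ there. In RNA from a whole culture, more cells of a type and more RNA per cell cannot be told apart.

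Levels are given below as log2 intensity minus the 75th percentile of the array, so that 0 is the level of a probe at that percentile. They are read between arrays for 1 probe and not between probes. In the mevalonate arm, 6 of 7 genes were called higher, with a median log2 change of 0.94. Hmgcs1, HMG-CoA synthase, stood at 4.18, 3.34, 3.71 and 3.81 in untreated cells and at 6.44, 5.78, 5.52 and 5.96 after RA. The conditions did not overlap, and the lowest RA array was more than 1 log2 unit above the highest untreated array. The difference was 2.17 ± 0.25 (log2, SE, n = 4 per condition, limma adjusted p = 0.000175), a 4.49-fold rise, the largest among the 26 genes. Mvd, which decarboxylates mevalonate diphosphate, stood at 0.82, 1.12, 0.89 and 1.49 before and at 2.59, 2.01, 1.82 and 2.12 after RA. Idi1, the isomerase of the isoprenoid unit, stood at 3.07, 2.44, 2.36 and 2.72 in untreated cells and at 4.10, 3.46, 3.24 and 3.66 after RA. Neither gene had overlapping conditions, and the changes were 1.05 ± 0.22 for Mvd (limma adjusted p = 0.00489) and 0.97 ± 0.23 for Idi1 (limma adjusted p = 0.0105).

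The other genes of this arm changed less or less evenly. Fdps, farnesyl diphosphate synthase, stood at 5.10, 4.51, 4.35 and 5.10 in untreated cells and at 6.17, 5.82, 5.0 and 5.85 after RA. RA replicate 3 fell below the untreated replicates 1 and 4, so that the conditions overlapped although the gene was called (0.94 ± 0.29, limma adjusted p = 0.0299). The mevalonate kinase Mvk rose by 0.62 ± 0.21 and the phosphomevalonate kinase Pmvk by 0.66 ± 0.18 on the log2 scale, with limma adjusted p of 0.0421 and 0.0196. These were the smallest changes that passed. The call of Mvk was lost when untreated replicate 2, 3 or 4 or RA replicate 1, 2 or 4 was left out (limma adjusted p from 0.0572 to 0.116), and that of Fdps without untreated replicate 2 or 3 or RA replicate 1, 2 or 4 (0.0679 to 0.0806). Pmvk lost its call without untreated replicate 3, where its log2 change of 0.56 was under 1.5-fold, and without RA replicate 1, where its adjusted p was 0.0593. Acat2, the cytosolic thiolase that opens the route, stood at -2.23, -2.69, -2.27 and -2.34 before and at -1.41, -2.20, -2.06 and -1.81 after RA. All RA arrays were above all untreated arrays, but the change of 0.51 ± 0.20 did not pass (limma adjusted p = 0.0787). After quantile normalization it did (0.62, adjusted p = 0.0416).

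The 3 genes that make squalene and close the ring were all called higher. Sqle, squalene epoxidase, which catalyses a rate-limiting oxidation, stood at 3.82, 3.69, 3.29 and 3.95 in untreated cells and at 5.20, 4.72, 4.63 and 4.91 after RA. The conditions did not overlap and the change was 1.18 ± 0.20, or 2.26-fold (limma adjusted p = 0.00143). Lss, lanosterol synthase, stood at 0.92, 1.15, 1.16 and 1.27 before and at 2.55, 2.03, 1.49 and 2.12 after RA. Its untreated arrays lay close together, with an SD of 0.15, and its RA arrays were spread more widely, with an SD of 0.44 (change 0.92 ± 0.22, limma adjusted p = 0.0109). Fdft1, squalene synthase, changed by 0.86 ± 0.23 (limma adjusted p = 0.0171). Its RA replicate 3, at 1.68, was level with untreated replicate 4, at 1.70, and without RA replicate 1 its adjusted p was 0.0502.

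The largest median change, 1.55 on the log2 scale, was that of the 8 enzymes from lanosterol to cholesterol, of which 7 were called higher. The difference between the 3 stages was not tested. Sc5d, the sterol desaturase near the end of the route, stood at 0.84, 0.52, 0.69 and 0.62 in untreated cells and at 3.14, 2.35, 2.45 and 2.67 after RA. With an untreated SD of 0.14, the rise of 1.98 ± 0.20 (3.96-fold) had the lowest adjusted p of the enzymes (limma adjusted p = 7.86e-05). Tm7sf2, a sterol reductase of the endoplasmic reticulum, stood at 1.44, 1.34, 0.00 and 1.46 before and at 3.44, 2.90, 2.68 and 3.57 after RA. Untreated replicate 3 was far below the other untreated arrays, and leaving it out gave 1.74, the lowest value over all settings, against 2.09 ± 0.36 with all arrays (limma adjusted p = 0.00183). Its second probe moved alike, by 1.90 ± 0.41.

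The demethylation of lanosterol involves Cyp51, Sc4mol, Nsdhl and Hsd17b7. Nsdhl, a sterol dehydrogenase, stood at -0.84, -0.67, -0.78 and -0.26 in untreated cells and at 1.73, 0.90, 0.56 and 1.28 after RA. Sc4mol, the methylsterol monooxygenase now named Msmo1, stood at 3.82, 3.37, 3.12 and 3.58 before and at 5.51, 4.88, 4.73 and 5.27 after RA. Cyp51, the demethylase targeted by azole drugs in fungi, stood at -0.15, -0.40, -1.36 and -0.17 in untreated cells and at 1.48, 0.78, 0.50 and 1.07 after RA. None of the 3 had overlapping conditions, and in each of them RA replicate 1 was the highest of the RA arrays and RA replicate 3 the lowest. The changes were 1.75 ± 0.26 for Nsdhl, 1.62 ± 0.23 for Sc4mol and 1.48 ± 0.32 for Cyp51 (limma adjusted p of 0.000832, 0.000536 and 0.00566). Hsd17b7, the ketoreductase of the same complex, rose by 0.87 ± 0.15 (limma adjusted p = 0.0018). Dhcr7, the terminal reductase that is mutated in Smith-Lemli-Opitz syndrome, stood at -0.09, -0.30, -0.38 and -0.16 before and at 1.37, 0.68, 0.65 and 1.07 after RA. It rose by 1.17 ± 0.19 with no overlap (limma adjusted p = 0.00133).

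Ebp, the sterol isomerase, was the enzyme of this stage that was not called. It stood at 3.87, 3.80, 3.35 and 3.72 in untreated cells and at 4.19, 3.87, 3.72 and 3.89 after RA. RA replicate 2 equalled untreated replicate 1 and RA replicate 3 equalled untreated replicate 4, and the change of 0.23 ± 0.17 did not pass (limma adjusted p = 0.287). Its log2 change was 0.39 after quantile normalization (adjusted p = 0.0462) and in the authors' values (0.0344), under 1.5-fold in both. Ebp has 1 probe on the array, so no second probe could be set beside it.

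**Figure D2:**
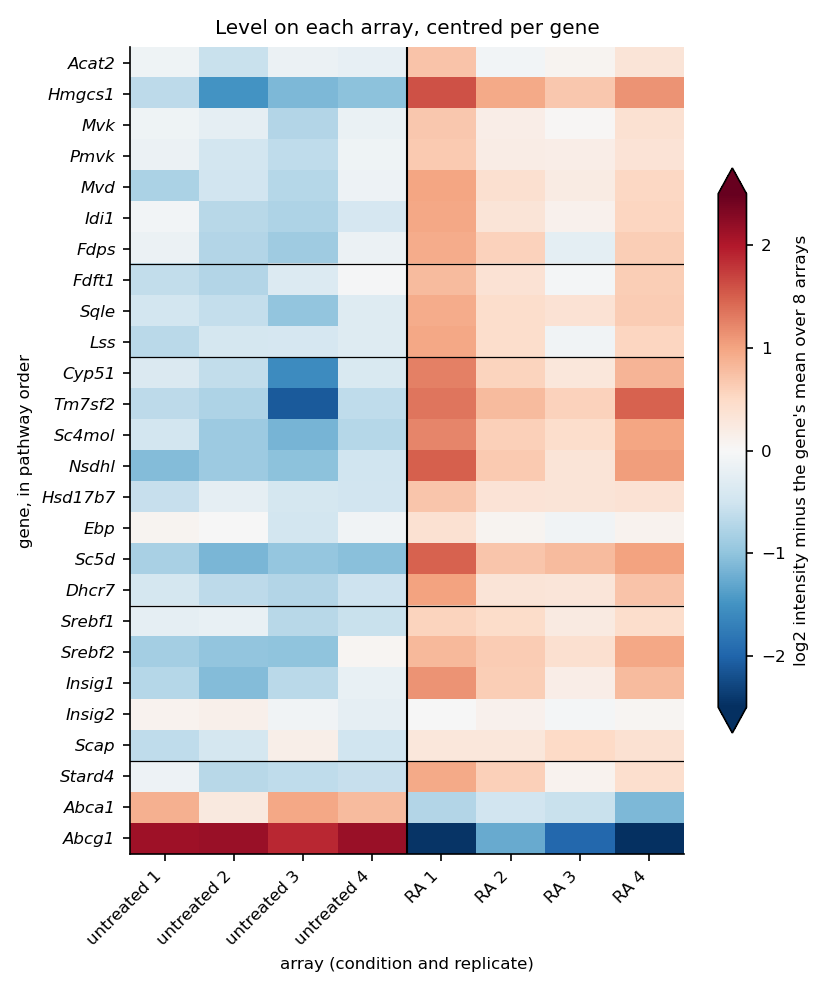
Level of the 26 genes on each of the 8 arrays (columns, untreated left and RA right of the line) as log2 intensity minus the gene's mean over 8 arrays, with genes in pathway order and lines between roles. Most enzymes are pale to dark red on the RA arrays, and RA 1 is the darkest for 17 of the 18. Fdps, Fdft1, Lss and Ebp on RA 3 and Acat2 on RA 2 lie below the gene's mean. Abca1 and Abcg1 show the opposite colours, and Abcg1 on RA 4 lies beyond the lower end of the scale.

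The enzymes also varied together between arrays of 1 condition. RA replicate 1 gave the highest RA value for 17 of the 18 enzymes, and RA replicate 3 gave the lowest for 16. The median centred level of the enzymes was 0.97, 0.42, 0.25 and 0.61 on the RA arrays, in the order of the replicates. The median over all detected probes was -0.09, -0.07, -0.15 and -0.10 on those arrays. The scaling of each array and the many probes hold that median steady, so it gives no yardstick for the enzymes. In untreated cells the enzymes lay at -0.46, -0.64, -0.76 and -0.36, and untreated replicate 3 gave the lowest value for 10 of 18. Untreated replicate 1 gave the highest value for 10 and the lowest for 4, so the order was shared less than on the RA arrays. Without RA replicate 1, which had the highest enzyme levels, 17 of the 26 genes were called higher with a median log2 change of 0.80.

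Each of the 2 slides carried 2 untreated and 2 RA arrays, which allowed the change to be taken within a slide. All 18 enzymes changed more on slide 1 (untreated replicates 1 and 3, RA replicates 1 and 4) than on slide 2, with medians of 1.37 and 0.73. Over all probes 61.2% had the larger change on slide 1. The interaction of condition and slide, fitted with limma, passed after adjustment for 0 of the 26 genes and for 0 of all probes. Without adjustment it passed for 1 of the 26, Nsdhl, with 2.31 on slide 1 and 1.19 on slide 2, and for 3.00% of all probes. Of the 8 ES cell markers, 6 also changed more on slide 1, with medians over all 8 of -4.61 and -3.82, and their part in the difference between the slides was not tested. With the slide as a block, 20 of the 26 genes were called higher, Mvk being lost at an adjusted p of 0.0562.

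**Figure D3:**
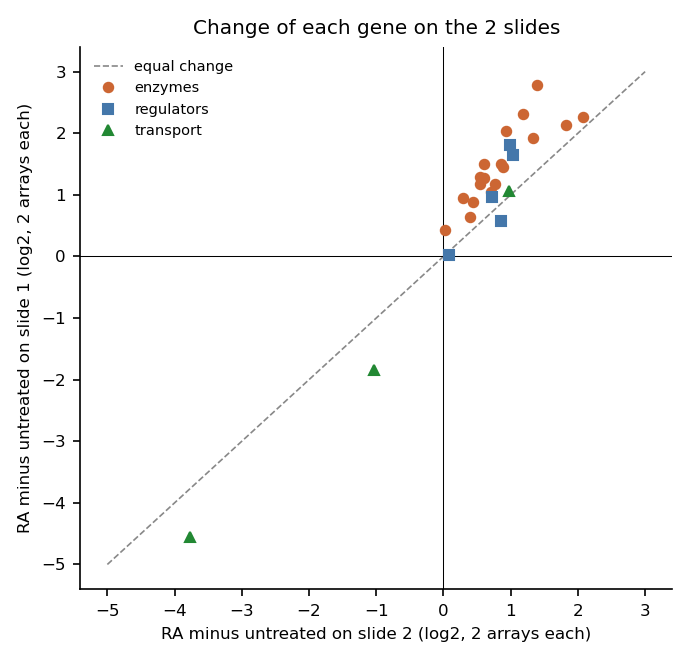
Change of each gene (RA minus untreated, log2) on slide 1 (vertical axis) against slide 2 (horizontal axis), each from 2 arrays per condition. Points above the dashed line rose more, or fell less, on slide 1, and all 18 enzymes (circles) lie above it.

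The promoters of the genes were read from RefSeq (GRCm38.p6), from 250 bases before to 50 bases after each listed start. A promoter was found for 21 of the 26 genes. SREBPs bind sterol regulatory elements and work with NF-Y, which binds the CCAAT box, and with Sp-family factors, which bind GC boxes, so these letters were counted on both strands. CCAAT was in a promoter of 14 of the 15 enzymes with a listed promoter (93.3%) and of 41.1% of all 27025 genes in the table. The GC box GGGCGG was also in 14 of the 15, against 38.2% of all genes. TCACNCCAC, letters of a sterol regulatory element with N for any base, was in 1 of the 15, Hmgcs1, and in 1.44% of all genes. These matches describe letters in a window and are not binding sites.

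The bases from -150 to -1 before the first listed start are printed for 5 genes, to set the motif letters of strongly raised enzymes beside those of a gene that was not called and of an exporter that fell. Hmgcs1 (chr13:119690201-119690350, plus strand) was the enzyme that rose most and the carrier of the sterol element letters, and Sc4mol (chr8:64733579-64733728, minus strand) and Nsdhl (chrX:72918371-72918520, plus strand) are successive enzymes of the demethylation. Insig2 (chr1:121332590-121332739, minus strand) was not called, and Abca1 (chr4:53159896-53160045, minus strand) was lower after RA. Sequences run 5′ to 3′ in the direction of the gene, and capitals mark the 3 motifs on either strand, so that CCAAT on the opposite strand reads ATTGG here and the GC box reads CCGCCC.
Hmgcs1: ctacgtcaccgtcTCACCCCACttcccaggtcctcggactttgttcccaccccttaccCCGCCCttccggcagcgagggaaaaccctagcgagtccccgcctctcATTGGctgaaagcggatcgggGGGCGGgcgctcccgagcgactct
Sc4mol: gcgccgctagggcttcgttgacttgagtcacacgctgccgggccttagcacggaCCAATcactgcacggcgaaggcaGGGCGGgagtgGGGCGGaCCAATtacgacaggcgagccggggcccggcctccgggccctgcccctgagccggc
Nsdhl: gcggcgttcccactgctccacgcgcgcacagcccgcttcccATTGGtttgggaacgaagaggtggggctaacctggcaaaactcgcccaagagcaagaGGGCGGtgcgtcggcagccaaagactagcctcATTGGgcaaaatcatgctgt
Insig2: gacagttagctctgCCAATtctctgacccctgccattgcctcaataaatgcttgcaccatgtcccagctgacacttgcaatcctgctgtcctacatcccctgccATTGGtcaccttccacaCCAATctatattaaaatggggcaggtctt
Abca1: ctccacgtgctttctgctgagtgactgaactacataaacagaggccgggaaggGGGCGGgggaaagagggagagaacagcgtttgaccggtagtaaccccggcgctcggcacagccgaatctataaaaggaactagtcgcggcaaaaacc
Hmgcs1 holds 1 CCAAT box, 2 GC boxes and the sterol element letters in this stretch, Sc4mol 2 CCAAT boxes and 2 GC boxes, and Nsdhl 2 CCAAT boxes and 1 GC box. Insig2 holds 3 CCAAT boxes and no GC box in its stretch, but has a GC box and no CCAAT box at each of its 2 other listed starts. Abca1 holds 1 GC box and no CCAAT box. The GC box was in a promoter of all 4 genes not called higher that have one listed and of 94.1% of those called higher. The CCAAT box was in 2 of these 4 and also in 94.1% of those called higher. Of all genes, 38.2% had the GC box and 41.1% the CCAAT box.

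Of the 5 regulators, 4 were called higher. Srebf2, which encodes the SREBP that mainly drives cholesterol synthesis, stood at -0.12, -0.26, -0.28 and 0.77 in untreated cells and at 1.54, 1.36, 1.13 and 1.69 after RA. Untreated replicate 4 was higher than the other untreated arrays but still below all RA arrays. The change was 1.40 ± 0.26, or 2.64-fold (limma adjusted p = 0.00256), and 1.65 without untreated replicate 4. Its second probe rose by 1.58 ± 0.24. Srebf1, whose products mainly drive fatty acid synthesis, stood at -2.66, -2.62, -3.12 and -2.98 before and at -1.87, -1.97, -2.20 and -1.99 after RA. The conditions did not overlap and the change was 0.84 ± 0.16 (limma adjusted p = 0.00354), but with normexp background correction it was 0.54, under 1.5-fold. One probe cannot separate the Srebf1 transcripts for SREBP-1a and SREBP-1c.

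Scap, the escort of the SREBPs, stood at 3.43, 3.63, 4.22 and 3.58 in untreated cells and at 4.35, 4.36, 4.57 and 4.45 after RA. All RA arrays were above all untreated arrays and lay close together, with an SD of 0.10 (change 0.72 ± 0.19, limma adjusted p = 0.0162). The untreated array nearest to them was replicate 3, the one with the lowest enzyme levels. Scap changed less on slide 1 than on slide 2, by 0.58 and 0.86.

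The Insig genes, which encode the retention proteins, moved apart. Insig1, itself a target of SREBPs, stood at -1.66, -2.04, -1.63 and -1.14 in untreated cells and at 0.17, -0.34, -0.78 and -0.16 after RA, a rise of 1.34 ± 0.25 with no overlap (limma adjusted p = 0.00295). Insig2 stood at 1.60, 1.65, 1.42 and 1.28 before and at 1.51, 1.63, 1.46 and 1.56 after RA. All 4 RA values of Insig2 were inside the range of the untreated arrays, with a change of 0.05 ± 0.14 (limma adjusted p = 0.779). Its second probe changed by 0.20 ± 0.14 (limma adjusted p = 0.257). The within-array difference between Insig1 and Insig2, which the scaling of an array does not touch, rose by 1.29 ± 0.33 (SE, n = 4 per condition, two-sided exact permutation p = 0.0286, 0.0429 after Benjamini-Hochberg adjustment over 3 pairs). The smallest p that 4 against 4 arrays allow is 0.0286. Without any 1 of the RA replicates the change was 1.13 to 1.43, with an adjusted p of 0.0857. Taken within replicate numbers, the change was 0.70 to 1.93 and above 0 in 4 of 4, but 4 pairs of arrays allow no exact p under 0.125, so that the test could not pass with this block. The change of Srebf1 differed from that of Srebf2 by -0.56 ± 0.32, which did not pass (exact permutation p = 0.143, adjusted p = 0.143). Without untreated replicate 4 that difference was -0.85 and passed (exact permutation, adjusted p = 0.0286).

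**Figure D4:**
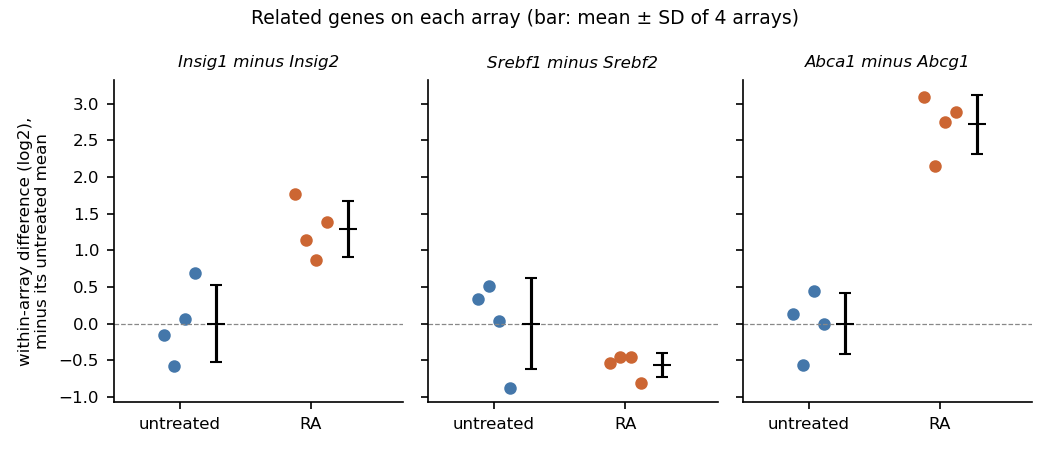
Difference between related genes on each array (log2, first gene minus second, set to 0 at the untreated mean), for Insig1 and Insig2, Srebf1 and Srebf2, and Abca1 and Abcg1. Points are arrays and bars the mean ± SD of 4 arrays, and the conditions are apart for the Insig and the exporter pairs, with changes of 1.29 and 2.72, but not for the Srebf pair.

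Of the 3 transport genes, the 2 exporters fell and the carrier rose. Abcg1, which passes sterols from cells to lipoproteins (probe at chr17:31252580-31252639, mm9), stood at 2.68, 2.73, 2.46 and 2.73 in untreated cells and at -1.89, -0.69, -1.39 and -2.09 after RA. The untreated arrays lay within an SD of 0.13, and every RA array was far below them. The change was -4.16 ± 0.29 (limma adjusted p = 1.38e-05), so that the RA level was 5.58% of the untreated level, 17.9-fold lower, and this was the largest change of the 26 genes in either direction. Abca1, which loads cholesterol onto apolipoproteins (probe at chr4:53043944-53044003, mm9), stood at 1.84, 1.20, 1.93 and 1.76 before and at 0.23, 0.49, 0.40 and -0.17 after RA. It fell by 1.45 ± 0.22 on the log2 scale, to 36.7% of the untreated level, with no overlap (limma adjusted p = 0.000808). The within-array difference between Abca1 and Abcg1 rose by 2.72 ± 0.29 (exact permutation p = 0.0286, adjusted p = 0.0429), that is Abcg1 fell further. Without any 1 of the RA replicates the change was 2.59 to 2.91 with an exact permutation p of 0.0286, the smallest that 4 against 3 arrays allow (adjusted p = 0.0857). Within replicate numbers it was 2.32 to 2.97, where the exact p was 0.125, the smallest that 4 pairs of arrays allow. Both genes were called lower under every setting tried. Stard4, a soluble sterol carrier and SREBP target, stood at 1.36, 0.78, 0.84 and 0.90 in untreated cells and at 2.42, 2.08, 1.56 and 1.89 after RA. It rose by 1.02 ± 0.22 with no overlap (limma adjusted p = 0.00576), and its second probe by 1.07 ± 0.28.

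Of the 9 second probes, 6 were called higher, those of Hsd17b7, Nsdhl, Pmvk, Srebf2, Stard4 and Tm7sf2. The second probe of Mvk changed by 0.54 ± 0.21 and was not called (limma adjusted p = 0.0772). That of Fdft1 was not well above background on any array and that of Insig2 is given above.

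A further 33 genes of cholesterol and fatty acid metabolism, listed by function, were read in the same way, and 15 were called higher, 4 lower and 14 not called, where 12.9% of all probes were called higher and 21.6% lower (17.8% and 27.7% of detected probes).

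Of 9 genes of sterol uptake and trafficking, 4 were called higher and none lower, against 12.9% and 21.6% of all probes. Vldlr, a receptor for lipoproteins of very low density, stood at 0.13, -0.78, -0.29 and 0.17 in untreated cells and at 1.10, 1.08, 1.48 and 1.92 after RA. Its lowest RA array was above its highest untreated array, and it rose by 1.58 ± 0.27 (limma adjusted p = 0.00181). Lipa, the lysosomal lipase that frees cholesterol from its esters, rose by 1.42 ± 0.22 (limma adjusted p = 0.00111). Soat1, which esterifies cholesterol for storage, rose by 1.69 ± 0.19 (limma adjusted p = 0.000182).

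The list of genes that process SREBPs or degrade their partners holds 3, of which 1 was called lower, too few to set against the 21.6% of all probes. This was Mbtps1, the site-1 protease that cuts SREBPs, which fell by 0.59 ± 0.15 on the log2 scale (limma adjusted p = 0.0126). It was lower by 0.35 after quantile normalization, which is under 1.5-fold, and its adjusted p with the replicate block was 0.050.

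Of the 5 genes of the LXR list, Nr1h3, which encodes LXRα, rose by 1.10 ± 0.16 and the phospholipid acyltransferase Lpcat3 by 0.61 ± 0.19, while Nr1h2, which encodes LXRβ, fell by 1.18 ± 0.15 and the lipoprotein component Apoe by 2.08 ± 0.25 on the log2 scale (limma adjusted p of 0.000784, 0.0291, 0.000321 and 0.000244). With the replicate block Lpcat3 no longer passed (adjusted p = 0.0842). Apoe stood at 6.23, 5.98, 6.44 and 6.97 in untreated cells and at 3.97, 4.45, 4.74 and 4.15 after RA. Among genes that LXRs are known to drive, Abca1, Abcg1 and Apoe were lower, Srebf1 and Lpcat3 were higher and Mylip was not called. These genes come from the 26 and from the LXR list and are not a full list of LXR targets. They are too few to set against the 12.9% of all probes called higher and 21.6% called lower (17.8% and 27.7% of detected probes). Among 5 enzymes that make or break down oxysterols, Cyp7b1, an oxysterol hydroxylase, rose by 1.12 ± 0.18 (limma adjusted p = 0.00115). Ch25h, which makes an oxysterol ligand of LXR, was not well above background on any untreated array and was on all 4 RA arrays. Its fitted log2 change, 2.87 ± 0.29 (limma adjusted p = 9.13e-05), rests on those dim untreated signals and was 0.70 in the authors' values.

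Of 11 fatty acid genes driven by SREBP-1, 7 were called higher, against 12.9% of all probes, 1 lower, against 21.6%, and 3 were not called. The desaturase Fads2 rose by 3.52 ± 0.29, Scd2 by 2.37 ± 0.31 and Scd1 by 2.21 ± 0.38 (limma adjusted p of 2.99e-05, 0.000379 and 0.00165). Elovl6, which elongates palmitate, stood at 4.51, 4.62, 3.53 and 4.35 in untreated cells and at 3.34, 2.93, 2.68 and 3.20 after RA. It fell by 1.21 ± 0.26 on the log2 scale with no overlap (limma adjusted p = 0.00625).

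**Figure D5:**
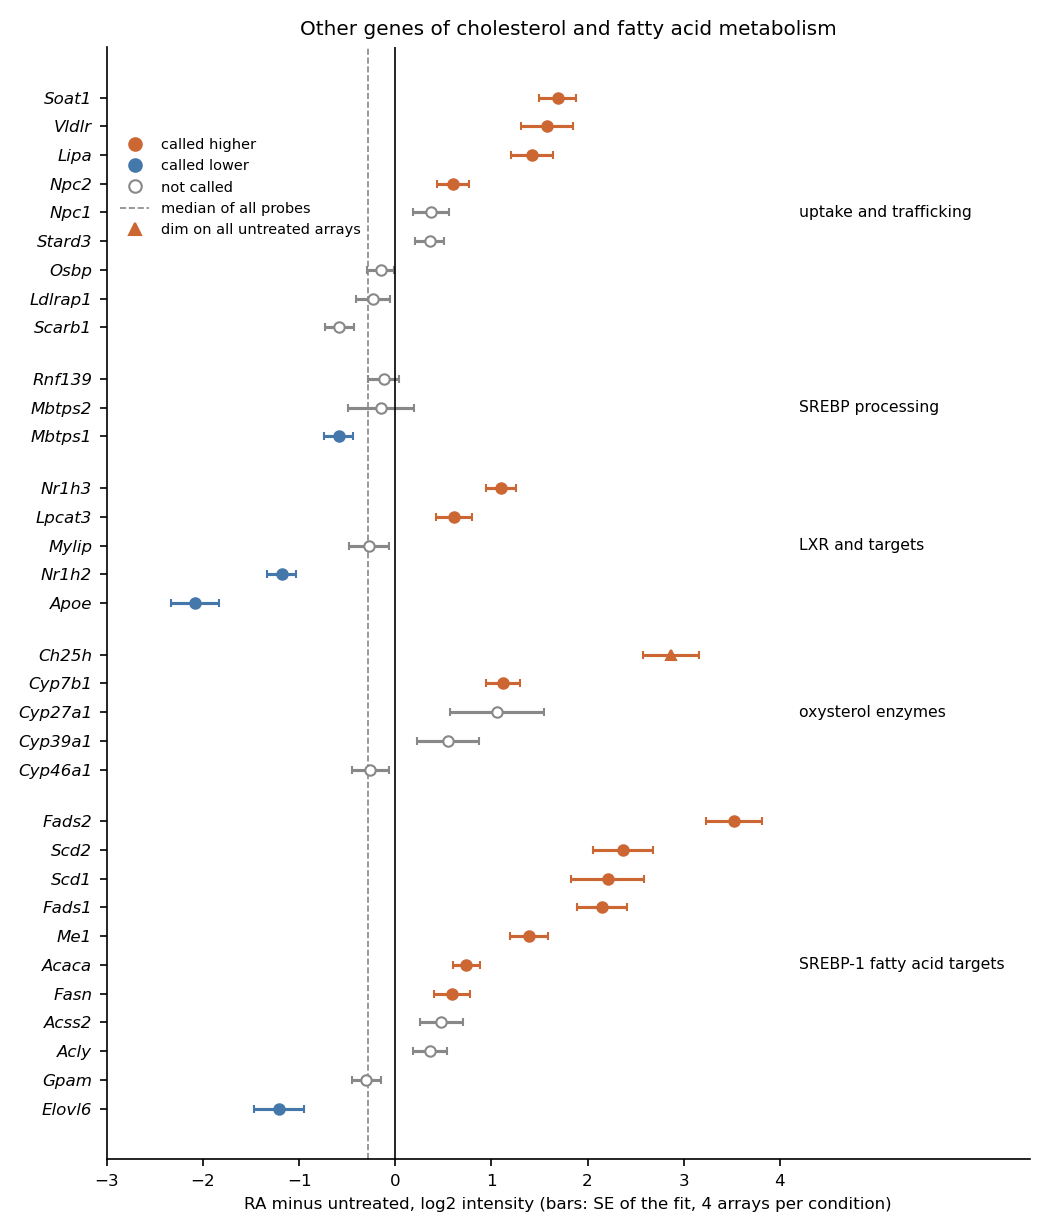
Change of 33 other genes of cholesterol and fatty acid metabolism (RA minus untreated, log2 intensity on the horizontal axis, SE as bars, 4 arrays per condition), grouped by list. Fads2 at 3.52 lies farthest right, Apoe at -2.08 lies farthest left, and the value of Ch25h (triangle) rests on untreated arrays that were dim.

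The cells themselves differed between the conditions. All 8 ES cell markers were lower after RA and all 7 RA response genes higher, where 21.6% of all probes were lower and 12.9% higher. Summed over its genes on the linear scale, the ES list ranged from 8.16 to 8.64 (log2) in untreated cells and from 4.37 to 5.40 after RA. All 10 markers of primitive and parietal endoderm were higher (7.03 to 7.49 and 8.28 to 8.56), as were 5 of 6 mesenchymal markers (1.35 to 1.96 and 8.01 to 8.84) and 4 of 8 visceral endoderm and lipoprotein genes (1.74 to 2.18 and 3.50 to 4.68), of which Apoa1 was at background on all arrays. Apob, of the last list, was not called (1.25 ± 0.47, limma adjusted p = 0.0671) but passed with the replicate block (adjusted p = 0.0102). Of 7 neural markers, 2 were higher and 1 lower (2.74 to 3.45 and 3.80 to 3.93), and Sox1 and Pax6 were not called. These neural counts are near the shares of detected probes, 17.8% higher and 27.7% lower. On the RA arrays, in the order of the replicates, the summed level was 4.94, 5.40, 4.81 and 4.37 for the ES list, 8.56, 8.55, 8.28 and 8.32 for primitive and parietal endoderm, and 8.84, 8.74, 8.12 and 8.01 for the mesenchymal list. RA replicate 1 was highest and RA replicate 3 lowest for 4 of the 10 endoderm genes, 2 of the 6 mesenchymal genes and 0 of the 8 ES genes. The part of these cell types in the changes of the sterol genes was not tested.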

How the data were processed

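Gene expression was measured on 8 Agilent 1-colour arrays, 4 of untreated E14 ES cells and 4 of RA-treated cells, grouped by the labels. The authors deposited scanner files from Agilent Feature Extraction (version 10.7.3.1), with a processed intensity per spot that is corrected for background but not scaled between arrays, the raw spot and background intensity, and detection flags. A value table deposited by the authors holds log2 values whose distribution is the same on all arrays. Their text states an FDR of 0.05 and a change above 1.5-fold. Normalization is not given in the sources used here.

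In R (version 4.3.3), log2 of the processed intensity was taken, each array was shifted by the 75th percentile of its 59305 gene spots, 3671 control spots and outlying spots (124 to 145 per array) were left out, and spots of a probe were averaged to 55681 probes. No spot was saturated, and 56.7% to 62.7% were well above background, which limits the precision for dim probes, as does the number of arrays. RA was tested against untreated cells in limma (version 3.58.1; lmFit, then eBayes), with p-values adjusted by Benjamini and Hochberg's method across all probes. The fit was tested on simulated data with 200 known changes of 2 log2 units. It called 148 of these in the right direction, missed the rest and called 10 unchanged probes. Related genes were compared by exact permutation of within-array differences over 3 pairs. Promoter letters were counted in Python (version 3.11.15).

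The members, lists and motifs were chosen with earlier results of these data known. All members are named. Some genes of the other lists are not reported here. Genes of the other pathway lists are named where called, at most 3 in each direction, marker lists are given as counts, and Mylip, Sox1, Pax6, Apoa1 and Apob were added after their values were seen. Gene names come from the array design, and probe positions are on mm9. Deviations from the condition means of arrays with the same replicate number correlated at 0.187, 0.189, 0.104 and 0.152 for replicates 1 to 4 over 27508 probes, all above 0.1, while arrays whose numbers differ reached up to 0.142. The results given are from fits without pairing, and the replicate block was fitted as an alternative. Other alternatives were quantile normalization, the percentile over detected probes, normexp, the authors' values, a filter on dim probes, the slide as a block, the mean of a gene's probes, other fold thresholds and leaving out each array. Changes relative to the median of all probes, the interaction with the slide and exact tests within replicate numbers were added after seeing the data.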

Additional observations from a re-analysis of the deposited data

Results flagged for a closer look

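In 3 of 52 groups of 4 arrays (26 genes in 2 conditions) 1 array lay far from the other 3 by Dixon's test at the 95% level, and chance alone gives 2.6. Untreated replicate 3 of Tm7sf2 was at 0.00, with the other untreated arrays at 1.34 to 1.46. RA replicate 1 of Hsd17b7 was at 0.48, above the other RA arrays at 0.12 to 0.16. Untreated replicate 4 of Srebf2 was at 0.77, above the other untreated arrays at -0.28 to -0.12. All 3 values are log2 intensity minus the 75th percentile of the array.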

How the results depend on the processing

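The 2 exporters were called lower under every alternative, and the count of genes called higher was 17 to 22 except at a 2-fold threshold, where it was 12. The median log2 change was 0.80 to 1.13, or 1.23 relative to the median of all probes. With the replicate number as a block, 21 genes were called higher and 2 lower, and the block changed no call of the 26 genes, but within replicate numbers the Insig and exporter pairs had an exact p of 0.125, the smallest possible, and the Srebf pair 0.25. Insig2, not called, was at -0.02 without untreated replicate 4 and at 0.10 without untreated replicate 2, its lowest and highest values with 1 array left out. Leaving out 1 array at a time, the within-array change was 1.10 to 1.52 for Insig1 minus Insig2 and 2.53 to 2.91 for Abca1 minus Abcg1, and without any 1 of the RA replicates both had an adjusted exact permutation p of 0.0857 (0.0571 for the Insig pair and 0.0286, the smallest possible, for the exporters before adjustment). For Srebf1 minus Srebf2 it was -0.85 to -0.39, and -0.85 passed without untreated replicate 4. The cause of these differences was not tested. Signal over background limited the second probe of Fdft1, which was dim on all arrays.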
